A study of Mus musculus with 9 samples.

Results

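The 33 genes described here mark the 2 cell types of the small blood vessels of the brain, endothelial cells and the pericytes that wrap them, and they were measured in the cerebral cortex of mouse embryos with and without Sfpq, an RNA-binding protein of the cell nucleus. The genes were taken by name. Each was read through the probe sets (groups of probes for one exon stretch) that the array's annotation assigns to that gene alone. Together they hold 710 probe sets, of which 659 lay above the median signal of all probe sets and were kept, and a gene's level is the mean log2 signal of its kept probe sets. Genes with at least 3 kept probe sets were tested, which gave 31 of the 33 genes among 16854 genes in all, with 6 to 65 kept probe sets each. The 2 genes not tested were Cldn5, with 2 kept probe sets, and Ly6c1, with 1.

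The 9 embryos, all at stage E13.5, gave 1 array each: 3 control embryos labelled wild type, 3 Sfpq+/- embryos and 3 Sfpq-/- embryos. Total RNA of the whole cortical region was hybridised, without sorting of cells. The genotype fields name no Cre driver, floxed allele, litter, slide or date. How the allele was deleted, and in which cells, is therefore not known here. The extraction notes list Sfpq+/- in 2 places and Sfpq-/- in none, so groups rest on the titles and genotype fields. Since no label says that the embryos of a group came from separate litters, p-values measure only the spread between these samples.

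Vessels enter the embryonic cortex from a plexus in the covering meninges and sprout inward toward VEGF made by neural progenitors, which endothelial cells read through the receptor Kdr. Endothelial platelet-derived growth factor draws in pericytes, which carry the receptor Pdgfrb and settle under the same basement membrane. Wnt ligands of the neural tissue then turn the endothelium into a barrier with tight junctions, few transport vesicles and dedicated nutrient carriers such as Slc2a1. In bulk RNA of a whole cortex, fewer cells of a type and less RNA per cell cannot be told apart.

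Promoters were read for 21 of the 33 genes from RefSeq (GRCm38.p6), as windows of 300 bases with 250 before the transcription start and 50 after it. Of these, 4 are shown because the results below turn on their genes: the 2 called genes that the promoter table holds, Mfsd2a and Rgs5, and Kcnj8 and Abcc9, whose products form one pericyte potassium channel and whose genes lie close together on chromosome 6. Capitals mark every match, on either strand, to CCGGAA or AGGAAG (bound by ETS factors such as Erg), ACAAT (bound by SOX factors) or AGATAA (bound by GATA factors).
Mfsd2a, chr4:122961139-122961438, minus strand: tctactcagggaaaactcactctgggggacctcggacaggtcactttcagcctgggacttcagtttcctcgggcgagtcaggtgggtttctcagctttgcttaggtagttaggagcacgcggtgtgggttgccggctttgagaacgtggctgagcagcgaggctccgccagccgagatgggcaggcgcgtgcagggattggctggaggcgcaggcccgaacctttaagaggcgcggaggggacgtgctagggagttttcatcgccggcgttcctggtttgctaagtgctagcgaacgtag
Rgs5, chr1:169655251-169655550, plus strand: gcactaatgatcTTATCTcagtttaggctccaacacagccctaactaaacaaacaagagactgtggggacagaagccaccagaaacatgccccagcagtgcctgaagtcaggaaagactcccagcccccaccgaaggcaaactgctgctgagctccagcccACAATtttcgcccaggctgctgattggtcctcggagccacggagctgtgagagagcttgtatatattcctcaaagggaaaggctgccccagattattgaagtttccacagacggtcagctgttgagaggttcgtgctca
Kcnj8, chr6:142571565-142571864, minus strand: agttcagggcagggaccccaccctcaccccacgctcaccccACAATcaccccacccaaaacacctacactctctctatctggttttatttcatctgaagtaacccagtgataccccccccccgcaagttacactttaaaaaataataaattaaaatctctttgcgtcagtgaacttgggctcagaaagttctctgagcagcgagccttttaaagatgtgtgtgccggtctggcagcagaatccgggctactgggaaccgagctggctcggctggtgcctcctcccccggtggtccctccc
Abcc9, chr6:142702225-142702524, minus strand: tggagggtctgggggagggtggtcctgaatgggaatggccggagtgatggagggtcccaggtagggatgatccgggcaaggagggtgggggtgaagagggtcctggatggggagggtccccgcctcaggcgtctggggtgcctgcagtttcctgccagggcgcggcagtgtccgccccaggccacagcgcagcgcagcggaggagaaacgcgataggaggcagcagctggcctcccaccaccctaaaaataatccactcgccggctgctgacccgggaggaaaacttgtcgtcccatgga
The Rgs5 window held AGATAA in reverse, starting at base -238 from the start site, and ACAAT at -89. In the Kcnj8 window ACAAT stood at -209, and the Mfsd2a and Abcc9 windows held none of these letters. Over the 21 genes, AGGAAG was present in 11 (52.4%, against 38.4% of all 27025 genes in the promoter table) and ACAAT in 8 (38.1% against 34.4%). AGATAA was present in 4 (19.0% against 12.7%) and CCGGAA in 1, Kdr (4.76% against 16.7%). The other 12 genes were not in that table: Pecam1, Cdh5, Esam, Plvap, Ptprb, Ramp2, Nos3, Vwf, Sox7, Sox17, Sox18 and Pdgfrb.

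The arrays were alike in overall signal, with medians over all probe sets of 5.65 to 5.70 on the log2 scale. Sfpq itself, over its 12 probe sets with a control mean above 10, read 12.09, 12.07 and 12.12 in control, 12.08, 11.87 and 11.93 in Sfpq+/- and 10.08, 10.31 and 9.99 in Sfpq-/-. Its signal fell by 1.96 on the log2 scale in Sfpq-/- (limma, Benjamini-Hochberg adjusted p = 1.03e-06) and did not pass in Sfpq+/- (-0.13, adjusted p = 0.886). Over all kept probe sets of the gene, dim ones included, the fall was 1.15 in Sfpq-/- (adjusted p = 0.000787), and Sfpq+/- differed by 0.12 (adjusted p = 0.90). Xist, which marks female embryos, was high on control 1, control 2 and Sfpq-/- 1 and low on the other 6 arrays. The control and Sfpq-/- groups thus each held both sexes, and the Sfpq+/- group held male embryos only.

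One array stood apart for the vessel genes, though not for them alone. On Sfpq-/- 2, 30 of the 31 tested members lay above their control mean and their median deviation was 0.24 on the log2 scale, against -0.01 on Sfpq-/- 1 and 0.05 on Sfpq-/- 3. Control arrays gave -0.05, 0.05 and 0.03, and Sfpq+/- arrays -0.02, 0.04 and 0.06. Sfpq-/- 2 was the highest of all 9 arrays for 19 members and control 1 the lowest for 14. Over all genes tested, the median deviation of Sfpq-/- 2 was 0.06. That array was also the highest for other lists below, such as Wnt and Norrin signals (0.23), further barrier genes (0.24) and radial glia (0.10). The further mural genes were highest on Sfpq-/- 3 (0.16, against 0.09 on Sfpq-/- 2), as were the microglial genes (0.27, against 0.26). Cortical neuron genes were lowest on Sfpq-/- 2 (-0.07). The median of 16 meningeal and fibroblast genes was highest on Sfpq-/- 2 (0.27, against 0.08 and 0.10 on Sfpq-/- 1 and 3) and lowest on control 1 (-0.14). On Sfpq+/- 3 the meningeal median was 0.22, where that of the members was 0.06, and on Sfpq+/- 1 it was -0.12 (members -0.02). The part of vessel or meningeal cell content in these levels was not tested.

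**Figure D1:**
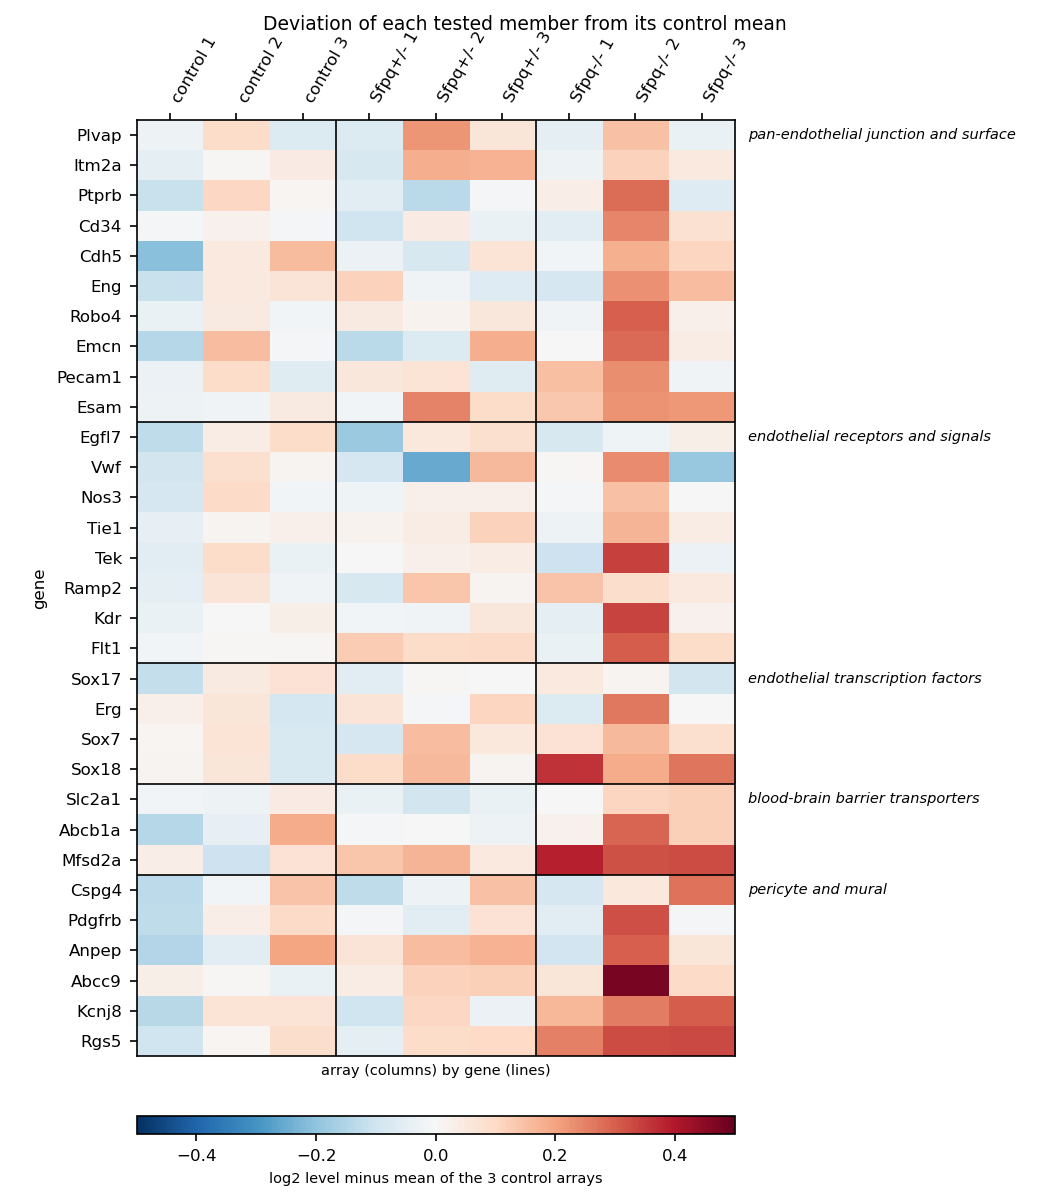
Log2 level of each of the 31 tested genes (lines, grouped by role) on each of the 9 arrays (columns), minus the mean of the 3 control arrays; red is above and blue below that mean. The column of Sfpq-/- 2 is red for 30 of 31 genes, while Mfsd2a, Rgs5 and Sox18 are red on all 3 Sfpq-/- arrays.

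In Sfpq-/- cortex the vessel genes stayed close to control. Of 31 tested members, 3 rose and 0 fell at an adjusted p under 0.05 (limma over all 9 arrays with 3 group means): Mfsd2a, the lipid carrier of brain endothelium, Rgs5, a pericyte regulator of G-protein signals, and Sox18, an endothelial transcription factor. That is 9.68% of the members, beside 12.1% of all genes tested (5.98% higher and 6.12% lower). The log2 changes of the 31 ran from -0.02 to 0.34 with a median of 0.09, and all genes tested had a median of 0.03. Of the 31, 29 lay above 0 (93.5%, against 56.8% of all genes). Without Sfpq-/- 2 this fell to 20 of 31 (64.5%, against 56.6%) and the median to 0.017, and without Sfpq-/- 1 the median was 0.16. The 95% intervals of 30 of 31 members lay within 0.5 log2 units of 0 on both sides, Mfsd2a being the exception with an upper bound of 0.51.

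The control and Sfpq-/- arrays did not overlap for 7 members, all higher in Sfpq-/-: Mfsd2a, Rgs5, Sox18, Kcnj8, Abcc9, Esam and Sox7. Among all genes, 16.1% had all Sfpq-/- arrays above all control arrays and 10.8% had them below. At the level of single probe sets, none of the 659 passed in any comparison, while 1.75% of all kept probe sets passed between Sfpq-/- and control. There 37 of the 659 had an unadjusted p under 0.05 (limma), a threshold at which the share over all probe sets was not computed. Of the 659, 472 (71.6%) lay above 0 in Sfpq-/-, beside 50.7% of all kept probe sets, but without Sfpq-/- 2 these shares were 54.0% and 52.7%.

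**Figure D2:**
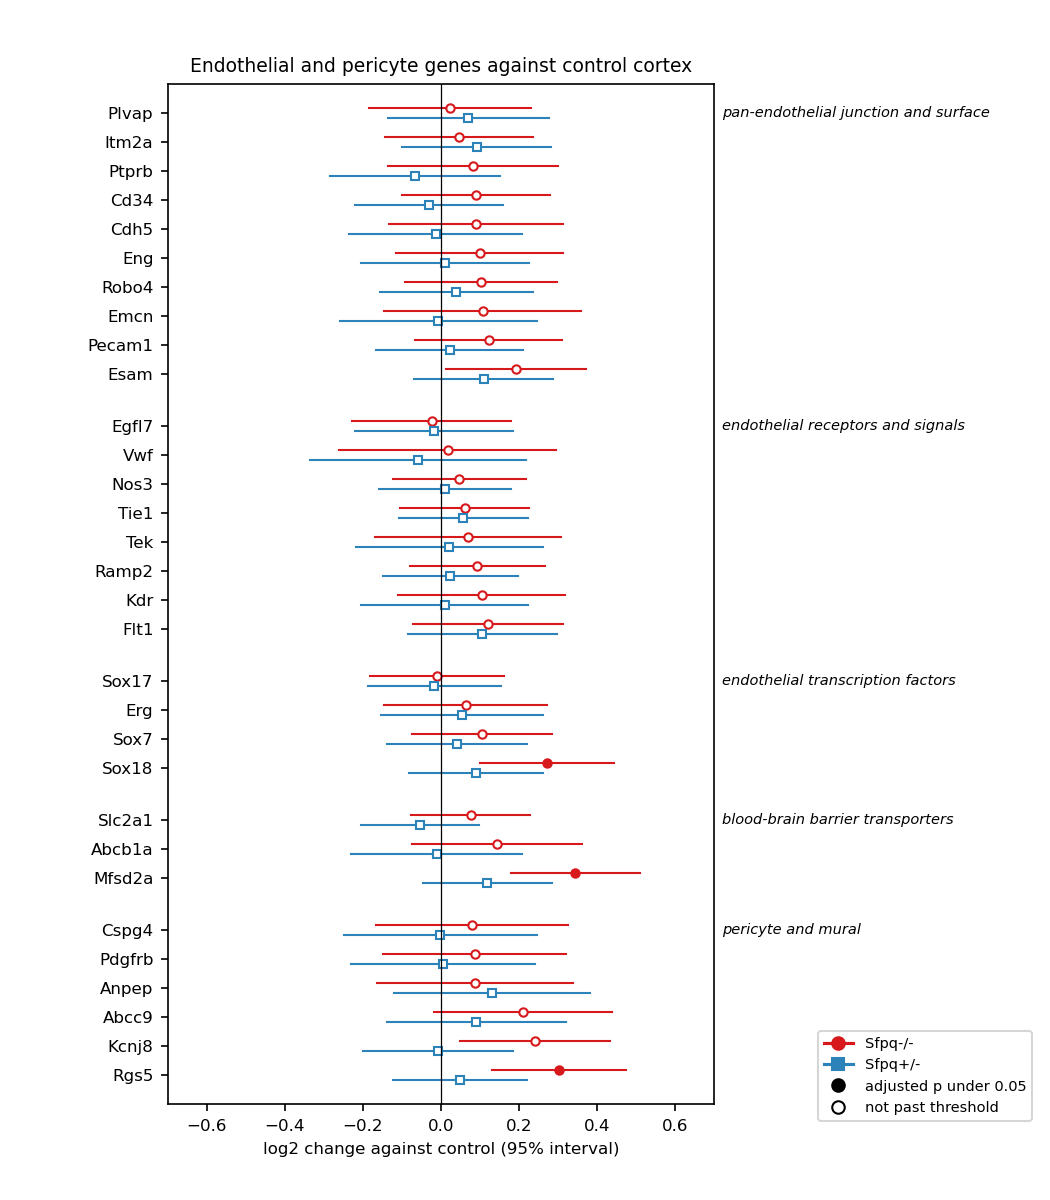
Log2 change against control with its 95% interval for each tested gene, in Sfpq-/- (red circles) and Sfpq+/- (blue squares), filled where the adjusted p was under 0.05. Mfsd2a, Rgs5 and Sox18 in Sfpq-/- are the filled points, and most intervals of both groups include 0.

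Of the 3 blood-brain barrier transporters, 1 rose. Mfsd2a carries lysophospholipids with long-chain fatty acids into the brain and holds down vesicle transport across the endothelium. Its level was 10.45, 10.32 and 10.49 in control, 10.56, 10.59 and 10.47 in Sfpq+/- and 10.81, 10.74 and 10.75 in Sfpq-/-. The Sfpq-/- arrays were the 3 highest of the 9. The log2 change against control was 0.34 (SE 0.08), a 1.27-fold rise (adjusted p = 0.0117). All 16 of its probe sets lay above 0 in that comparison, by 0.21 to 0.61. The call ended without control 2 (0.29, adjusted p = 0.0682) and without Sfpq-/- 1 (0.32, adjusted p = 0.059). Slc2a1, the glucose carrier of the barrier endothelium, read 12.82, 12.81 and 12.88 in control, 12.80, 12.74 and 12.80 in Sfpq+/- and 12.84, 12.95 and 12.95 in Sfpq-/-. Its control and Sfpq-/- arrays overlapped (log2 change 0.08, adjusted p = 0.58), with an interval of -0.08 to 0.23. Abcb1a, the drug efflux pump of the barrier, differed by 0.14 (adjusted p = 0.432).

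Among the 6 pericyte and mural genes 1 rose, and all 6 log2 changes were above 0, with a median of 0.15 (0.086 with 4 above 0 without Sfpq-/- 2, 0.096 without control 1 and 0.23 without Sfpq-/- 1). Rgs5 read 9.45, 9.56 and 9.64 in control, 9.50, 9.64 and 9.65 in Sfpq+/- and 9.80, 9.88 and 9.88 in Sfpq-/-. Every Sfpq-/- array lay above every other array. The log2 change was 0.30 (SE 0.08), 1.23-fold (adjusted p = 0.028), with all 9 probe sets above 0. This call held in 4 of 9 fits that left out 1 array. It ended without control 1 (0.25, adjusted p = 0.10), control 2 (0.31, 0.0886), Sfpq-/- 1 (0.33, 0.061), Sfpq-/- 2 (0.29, 0.0616) and Sfpq-/- 3 (0.29, 0.0512). It also ended with the median of the probe sets in place of their mean, which gave a log2 change of 0.13 (adjusted p = 0.781), and, at log2 changes of 0.27 to 0.30, in 4 further settings. These were embryo sex as a covariate (adjusted p = 0.0575), arrays centred on the median gene (0.0541), probe sets above the 75th percentile (0.0576) and only the 2 groups compared (0.0633).

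Kcnj8, the pore subunit of the pericyte ATP-sensitive potassium channel, read 7.97, 8.18 and 8.18 in control, 8.01, 8.21 and 8.08 in Sfpq+/- and 8.27, 8.36 and 8.41 in Sfpq-/-. The Sfpq-/- arrays were again the 3 highest, but the log2 change of 0.24 did not pass (adjusted p = 0.111). Abcc9, the regulatory subunit of that channel, read 8.06, 8.03 and 7.99 in control, 8.06, 8.14 and 8.14 in Sfpq+/- and 8.09, 8.50 and 8.12 in Sfpq-/-. Sfpq-/- 2 lay far above the others (log2 change 0.21, adjusted p = 0.251), and the Sfpq+/- arrays also lay above all control arrays. Of the 46 Abcc9 probe sets 41 lay above 0 in Sfpq-/- against control. Pdgfrb, the receptor through which endothelial platelet-derived growth factor recruits pericytes, read 9.21, 9.37 and 9.43 in control, 9.33, 9.28 and 9.41 in Sfpq+/- and 9.28, 9.66 and 9.33 in Sfpq-/-. The groups overlapped, and the log2 change was 0.09 (adjusted p = 0.707; interval -0.15 to 0.32). The surface aminopeptidase Anpep differed by 0.09 and the proteoglycan Cspg4 (NG2) by 0.08, neither past the threshold.

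Of 4 endothelial transcription factors, Sox18 rose. It belongs with Sox7 and Sox17 to the SOX group that directs arterial fate and sprouting. Its level was 8.76, 8.81 and 8.68 in control, 8.84, 8.91 and 8.76 in Sfpq+/- and 9.11, 8.94 and 9.02 in Sfpq-/-. The lowest Sfpq-/- array stood above the highest array of either other group. The log2 change was 0.27 (SE 0.08), 1.21-fold (adjusted p = 0.0459), with all 6 probe sets above 0. This call ended in 8 of 9 fits that left out 1 array, at adjusted p-values up to 0.184 (without Sfpq-/- 1), and held only without Sfpq-/- 2 (0.31, adjusted p = 0.0339). It also ended with no filter on dim probe sets (0.0698), the 75th percentile as filter (0.0776), at least 1 probe set (0.0691), the median of the probe sets (0.235) and only the 2 groups compared (0.0964), all adjusted p-values. Sox17 read 7.11, 7.28 and 7.30 in control, 7.18, 7.24 and 7.23 in Sfpq+/- and 7.28, 7.24 and 7.14 in Sfpq-/-. Its groups overlapped throughout (log2 change -0.01, adjusted p = 0.963). Sox7 differed by 0.10 (adjusted p = 0.50), although its 3 Sfpq-/- arrays lay above all control arrays. Erg, the ETS factor that maintains endothelial identity, differed by 0.06 (adjusted p = 0.764), with 6 of its 12 probe sets above 0 and 6 below.

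**Figure D3:**
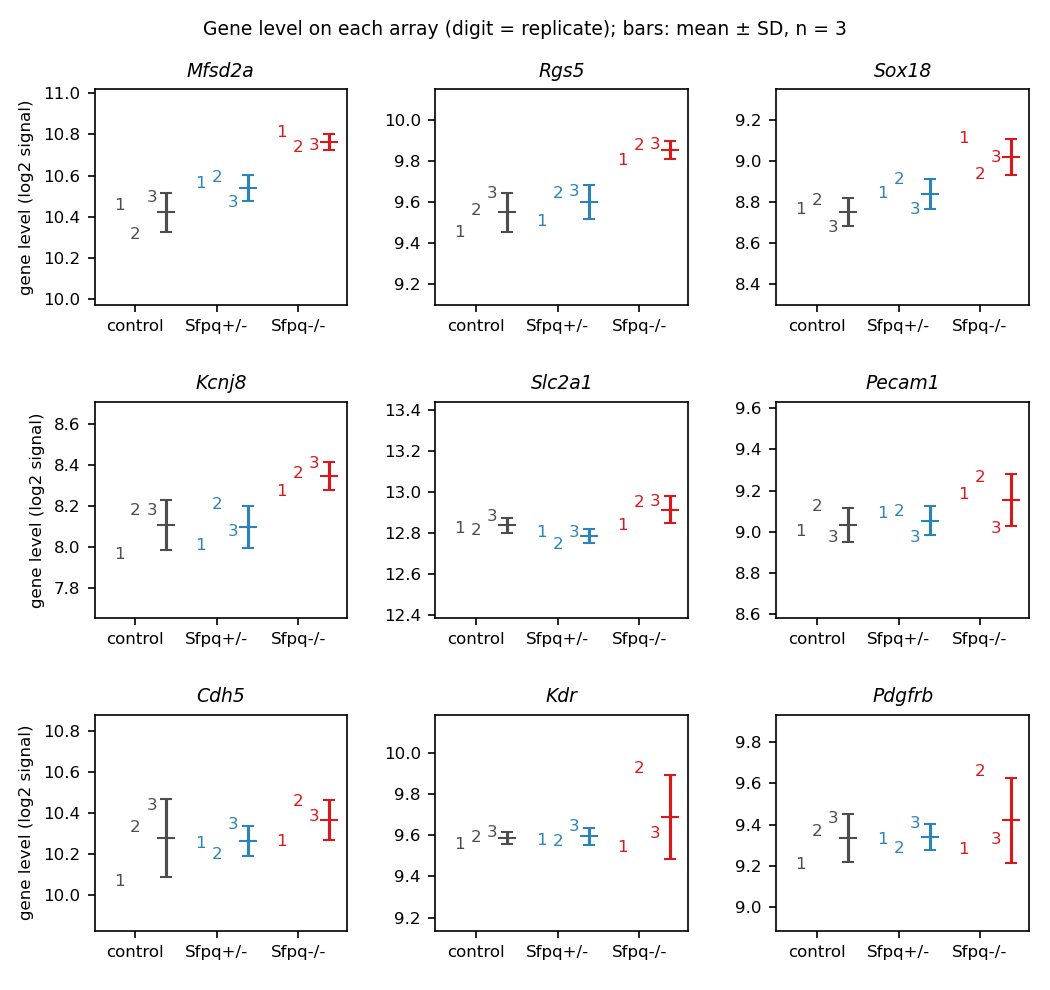
Log2 level of 9 genes on each array, by genotype; digits are replicates and bars are the mean ± SD of 3 arrays. In Mfsd2a, Rgs5, Sox18 and Kcnj8 the 3 Sfpq-/- arrays lie above all others, while in Kdr and Pdgfrb Sfpq-/- 2 alone stands high.

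None of the 10 tested junction and surface genes passed in limma. Esam was the 1 at an unadjusted p under 0.05, where 24.2% of all genes lay under it. The log2 changes of the 10 ran from 0.02 to 0.19, with a median of 0.09 (0.015 without Sfpq-/- 2, 0.039 without control 1 and 0.15 without Sfpq-/- 1). Pecam1, an adhesion molecule of endothelial contacts, read 9.0, 9.12 and 8.97 in control, 9.09, 9.10 and 8.97 in Sfpq+/- and 9.18, 9.26 and 9.01 in Sfpq-/-. One Sfpq-/- array fell within the control range (log2 change 0.12, adjusted p = 0.446). Cdh5, the cadherin of endothelial adherens junctions, read 10.07, 10.33 and 10.44 in control, 10.25, 10.20 and 10.34 in Sfpq+/- and 10.26, 10.45 and 10.38 in Sfpq-/-. Control 1 was its lowest array and the groups overlapped (0.09, adjusted p = 0.674; interval -0.13 to 0.31), although all 14 probe sets lay above 0. Esam, a tight junction adhesion molecule, read 9.75, 9.75 and 9.82 in control, 9.76, 10.02 and 9.87 in Sfpq+/- and at least 9.91 on each Sfpq-/- array. Control and Sfpq-/- arrays did not overlap, yet the change of 0.19 did not pass (adjusted p = 0.173). The TGF-beta co-receptor Eng differed by 0.10, the sialomucins Emcn and Cd34 by 0.11 and 0.09, and the guidance receptor Robo4 by 0.10. Plvap, which forms the diaphragms of leaky vessels and is lost as the barrier matures, differed by 0.02 (adjusted p = 0.925). The phosphatase Ptprb, which acts on Tek and Cdh5, differed by 0.08, and the X-linked membrane gene Itm2a by 0.05.

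The 2 members below the probe set minimum rest on 1 or 2 probe sets each. Cldn5, the main claudin of the brain endothelial tight junction, read 9.29, 9.24 and 9.40 in control, 8.91, 9.23 and 9.14 in Sfpq+/- and 8.85, 9.21 and 9.33 in Sfpq-/- over its 2 kept probe sets. The control and Sfpq-/- arrays overlapped. In a fit that admitted genes with 1 kept probe set it differed by -0.18 (adjusted p = 0.53), but its probe sets went opposite ways. The bright one (mean log2 signal 11.31) changed by 0.07 and the dim one (mean 7.05) by -0.42. Ly6c1, a surface protein of brain endothelium, read 9.25, 9.33 and 9.60 in control, 9.34, 9.29 and 9.35 in Sfpq+/- and 9.04, 9.10 and 8.80 in Sfpq-/- on its 1 kept probe set. Its Sfpq-/- arrays were the 3 lowest, with a change of -0.41 in the same fit (adjusted p = 0.052). Another 7 probe sets are shared with its near copy Ly6c2 and were not used.

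Nor did any of the 8 receptor and signal genes pass, and 0 lay at an unadjusted p under 0.05 (limma), beside 24.2% of all genes. The log2 changes of the 8 ran from -0.02 to 0.12 with a median of 0.06, which was -0.008 without Sfpq-/- 2 and 0.12 without Sfpq-/- 3. Kdr, the main VEGF receptor of endothelium, read 9.56, 9.59 and 9.62 in control, 9.57, 9.57 and 9.64 in Sfpq+/- and 9.54, 9.92 and 9.61 in Sfpq-/-. Sfpq-/- 2 was the highest and Sfpq-/- 1 the lowest of the 9 arrays (log2 change 0.10, adjusted p = 0.594). The decoy VEGF receptor Flt1 differed by 0.12 (adjusted p = 0.458), and the angiopoietin receptor Tek and its partner Tie1 by 0.07 and 0.06. Egfl7, a secreted matrix protein of sprouting vessels, read 8.58, 8.74 and 8.80 in control, 8.52, 8.76 and 8.79 in Sfpq+/- and 8.63, 8.69 and 8.74 in Sfpq-/-. Its groups overlapped (-0.02, adjusted p = 0.92), and Sox17 and Egfl7 were the only 2 tested members below 0. The adrenomedullin co-receptor Ramp2, the nitric oxide synthase Nos3 and the clotting protein Vwf differed by 0.09, 0.05 and 0.02.

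In Sfpq+/- cortex none of the 31 members passed against control, and the share called over all genes was 0% as well. At an unadjusted p under 0.05 there were 0 members and 715 of all genes (4.24%). The log2 changes ran from -0.07 (Ptprb) to 0.13 (Anpep), with a median of 0.02 (-0.0065 without control 1 and 0.058 without control 2) beside 0.03 over all genes, and 20 of 31 lay above 0 (64.5%, against 61.2% of all genes). With embryo sex as a covariate 12 of the 31 lay above 0 (38.7%, against 63.2% of all genes), with a median of -0.024. By probe set and without that covariate, 370 of 659 (56.1%) lay above 0, beside 51.9% of all kept probe sets. All 95% intervals lay within 0.5 log2 units of 0, the outermost bounds being -0.34 and 0.38. Arrays of the groups did not overlap for Flt1 and Abcc9, higher in Sfpq+/-, and for Slc2a1, lower; over all genes these shares were 8.52% and 3.99%. The called genes of the Sfpq-/- comparison, which uses the same control arrays, read 0.12 for Mfsd2a, 0.05 for Rgs5 and 0.09 for Sox18 here.

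Set against Sfpq+/- instead, Sfpq-/- cortex again showed none of the 31 members past the threshold, where 11.8% of all genes passed (4.58% higher and 7.25% lower). At an unadjusted p under 0.05 there were 4 members (12.9%, where 22.6% of all genes lay under it), all higher: Rgs5 (log2 change 0.25, adjusted p = 0.0623), Mfsd2a (0.23, 0.0869), Kcnj8 (0.25, 0.105) and Sox18 (0.18, 0.193). Their arrays did not overlap, nor did those of Slc2a1 (0.13) and Abcb1a (0.16), which made 6 members higher in Sfpq-/- on every array and 0 lower. Over all genes, 13.2% were higher and 13.6% lower in this way. All 3 barrier transporters were thus higher on each Sfpq-/- array than on each Sfpq+/- array (limma adjusted p-values 0.0869, 0.305 and 0.40). Against control, Mfsd2a alone of these 3 was separated in this way. Abcb1a read 7.23, 7.33 and 7.56 in control and 7.40, 7.67 and 7.49 in Sfpq-/-. The Sfpq+/- arrays of Slc2a1, from male embryos only, lay below all control arrays. No single probe set of the members passed between Sfpq-/- and Sfpq+/-, where 1.93% of all kept probe sets did. Above 0 in that comparison lay 470 of 659 (71.3%), beside 52.4%. The median over the 31 members was 0.08, and 27 lay above 0 (87.1%, against 56.5% of all genes). Without Sfpq-/- 2 the median was 0.024 with 16 above 0 (51.6%), and the probe sets above 0 were 51.9% of the members' and 52.6% of all. Without Sfpq-/- 1 the median was 0.13, and with array weights 0.017. Other settings brought up to 3 of the 31 members past the threshold (3 with array weights, where 21.6% of all genes passed).

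Long genes were the most often lower in Sfpq-/-. Among genes other than the members spanning at least 100 kb, 608 of 2247 fell (27.1%) and 133 rose, with a median log2 change of -0.07. The 7 members of that length are Erg (227 kb), Abcb1a (181 kb), Flt1 (165 kb), Tek (136 kb), Vwf (134 kb), Abcc9 (115 kb) and Ptprb (114 kb). None of these 7 fell, and their log2 changes ran from 0.02 to 0.21 with a median of 0.08. Without Sfpq-/- 2 only 3 of the 7 lay above 0, from -0.09 (Vwf) to 0.08 (Abcc9), with a median of -0.015, and still none fell past the threshold. In that fit 28% of the other long genes fell, with a median of -0.09. The 13 members under 20 kb had a median of 0.09, beside 0.04 for other genes of that length, and 0.012 without Sfpq-/- 2.

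**Figure D4:**
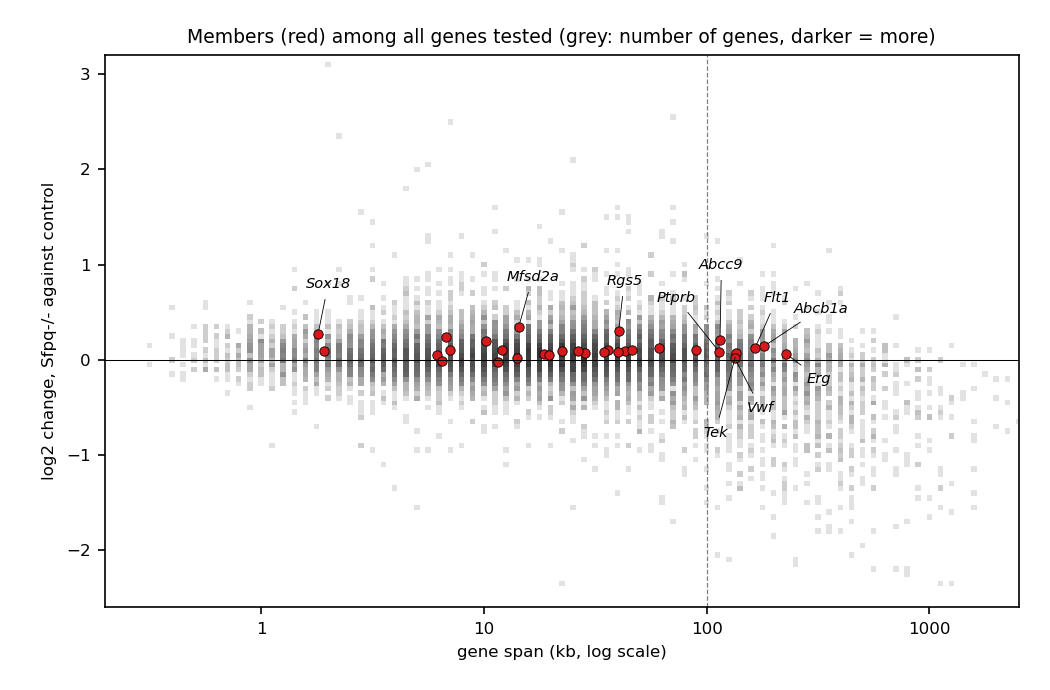
Log2 change in Sfpq-/- against control by gene span in kb (log axis) for all genes tested (grey, darker where more genes fall) and the 31 members (red); the dashed line marks 100 kb. Grey cells spread downward to the right of that line, while the 7 members there lie between 0.02 and 0.21.

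Signals that act on vessel cells were read from further lists. Among 25 tested genes of VEGF, angiopoietin and Notch signalling, 2 rose and 1 fell in Sfpq-/- (12.1% of all genes passed). Jag1, a Notch ligand, rose by 0.91 (adjusted p = 7.42e-05) and the chemokine receptor Cxcr4 by 0.41 (adjusted p = 0.0144), while Ackr3, the scavenger of the same chemokine, fell by 0.47 (adjusted p = 0.0291). The Ackr3 call ended in 5 of 6 fits without 1 control or Sfpq-/- array and held only without Sfpq-/- 2, and that of Cxcr4 ended without control 3 and without Sfpq-/- 1. The list's median was 0.09 (0.03 over all genes), or 0.03 without Sfpq-/- 2, and Vegfa stood at 0.09 (adjusted p = 0.588).

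Of 22 genes of mural cell recruitment and TGF-beta signalling, 3 rose and 1 fell (18.2%, beside 12.1% of all genes). Pdgfa, the ligand of the receptor Pdgfra, rose by 0.61 (adjusted p = 0.000909) and kept its call without any one control or Sfpq-/- array. Tgfb1 (0.33, adjusted p = 0.044) and Tgfb2 (0.25, adjusted p = 0.0375) rose and the cadherin Cdh2 fell by 0.41 (adjusted p = 0.031), and these 3 calls ended in 4, 5 and 4 of the 6 such fits. Cdh2 is also abundant in neural progenitors. Pdgfb, the endothelial ligand of Pdgfrb, stood at 0.20 (adjusted p = 0.189).

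Brain vessels depend on Wnt and Norrin signals. Of 18 genes of this group 3 rose and 2 fell (27.8%, beside 12.1% of all genes). Ndp, which encodes Norrin, read 8.29, 8.11 and 7.94 in control and 8.78, 8.76 and 8.78 in Sfpq-/-. Its arrays did not overlap and the rise was 0.66 (adjusted p = 0.000975). Tcf7l2, a transcription factor of the Wnt pathway that neural cells express too, rose by 0.81 (adjusted p = 0.000183), and Nkd1, a Wnt inhibitor, fell by 0.49 (adjusted p = 0.00165). Lef1 rose by 0.29 (adjusted p = 0.0467) and the co-receptor Lrp5 fell by 0.26 (adjusted p = 0.0273), calls that ended in 5 and 4 of 6 fits without 1 array. The ligands Wnt7a (0.24, adjusted p = 0.061) and Wnt7b (0.29, adjusted p = 0.063), which act on brain endothelium through Adgra2 and Reck, did not pass.

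Beyond the 3 carriers above, 23 further barrier and transport genes were tested, and 3 rose and 1 fell (17.4%, beside 12.1% of all genes). Lsr, a receptor at three-cell tight junctions, rose by 0.49 (adjusted p = 0.00909), the thyroid hormone carrier Slco1c1 by 0.38 (adjusted p = 0.00991) and the amino acid carrier Slc38a5 by 0.51 (adjusted p = 0.0262). Slco1c1 read 7.47, 7.48 and 7.42 in control, 7.61, 7.81 and 7.72 in Sfpq+/- and 7.73, 7.85 and 7.94 in Sfpq-/-, with every control array below the rest. Cav1, the coat protein of caveolae, read 10.52, 10.60 and 10.64 in control, 10.49, 10.76 and 10.65 in Sfpq+/- and 9.97, 10.06 and 9.85 in Sfpq-/-. Its fall of 0.63 (adjusted p = 0.000817) left all Sfpq-/- arrays below all others. The calls of Lsr, Slco1c1 and Cav1 held without any one control or Sfpq-/- array, and that of Slc38a5 ended without control 2, Sfpq-/- 1 or Sfpq-/- 3. The list's median was 0.18 with all arrays and 0.09 without Sfpq-/- 2.

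Further endothelial genes and factors, 24 in number, gave 0 calls between Sfpq-/- and control, where 12.1% of all genes passed. At an unadjusted p under 0.05 (limma) there were 4, where 24.2% of all genes lay under it. The nearest were Foxo1 (0.23, adjusted p = 0.073) and Klf4 (0.34, adjusted p = 0.0739), and the median was 0.10, or 0.06 without Sfpq-/- 2. Of 19 further mural genes 1 rose, Pdlim3, a muscle LIM protein, by 1.52 (adjusted p = 0.00031), with 7.85, 7.40 and 7.29 in control against 9.14, 8.77 and 9.19 in Sfpq-/-. The other 18 did not pass, so the share called was 5.26%, beside 12.1% of all genes. The median of 0.07 became 0.0038 without control 1, 0.0042 without Sfpq-/- 3 and 0.046 without control 2, and reached 0.12 without control 3 or Sfpq-/- 2. Of 16 basement membrane genes 2 rose (12.5%, beside the same 12.1%), Lama1 by 0.37 (adjusted p = 0.0247) and Sparc by 0.33 (adjusted p = 0.00985). The Lama1 call ended without control 1, control 2 or Sfpq-/- 2, and the list's median of 0.11 became 0.0006 without Sfpq-/- 2, 0.039 without control 1 and 0.18 without Sfpq-/- 1. Of 24 hypoxia-induced genes 2 rose and 1 fell: Slc2a3, the neuronal glucose carrier, by 1.58 (adjusted p = 2.5e-06), Egln3 by 0.45 (adjusted p = 0.00204), and Ndrg1, which fell by 0.48 (adjusted p = 0.0166; ended without control 3 and without Sfpq-/- 1). These calls made up 12.5% of the hypoxia list, beside 12.1% of all genes. That list also holds the member Slc2a1.

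Markers of other cells of the cortex were read beside the vessel genes. Of 16 microglial and macrophage genes 8 rose and 0 fell (50%, against 5.98% higher over all genes), with a median of 0.27. They included Cd68 (0.51, adjusted p = 0.00492), Tyrobp (0.36, 0.0157), Fcrls (0.33, 0.0261), Trem2 (0.34, 0.0324), P2ry12 (0.28, 0.0365) and C1qb (0.30, 0.0381). By array their median deviation was 0.22, 0.26 and 0.27 in Sfpq-/-, -0.03, 0.02 and 0.14 in Sfpq+/- and -0.01 to 0.02 in control. All 3 Sfpq-/- arrays were high there, whereas the vessel members were high mainly on Sfpq-/- 2. Single microglial calls were close to the threshold: 7 of the 8, all but Cd68, ended in 3 to 6 of 6 fits without 1 array, which left 1 to 6 calls, while the median stayed at 0.23 to 0.30.

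Among 16 meningeal and fibroblast genes 1 rose (6.25%, beside 12.1% of all genes called), Crabp2, by 1.78 (adjusted p = 7.7e-05). Of the 16, 15 lay above 0, with a median of 0.14 (0.065 without control 1 and 0.085 without Sfpq-/- 2). None of 10 erythroid genes passed, and 4 lay at an unadjusted p under 0.05 (limma), beside 24.2% of all genes. The erythroid median of -0.17 became -0.06 without control 2 and -0.10 without Sfpq-/- 3. Its array medians were -0.05, 0.10 and -0.04 in control, -0.17, 0.07 and -0.20 in Sfpq+/- and -0.09, -0.06 and -0.35 in Sfpq-/-. Sfpq+/- 1 and 3 thus lay below Sfpq-/- 1 and 2. The nearest were Klf1 (-0.30, adjusted p = 0.105) and Rhag (-0.28, adjusted p = 0.13). Of 11 cortical neuron genes 2 fell (18.2%), Neurod6 by 0.41 (adjusted p = 0.00848) and Nfasc by 0.66 (adjusted p = 0.000582). Of 12 radial glia genes 1 fell (8.33%), Lhx2, by 0.34 (adjusted p = 0.007). Rspo3 was the 1 gene of 11 (9.09%) for the choroid plexus and dorsal midline to pass, rising by 0.32 (adjusted p = 0.0307). This call ended in 5 of 6 fits without 1 array. The part of other cell types in the levels of the vessel genes was not tested.

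**Figure D5:**
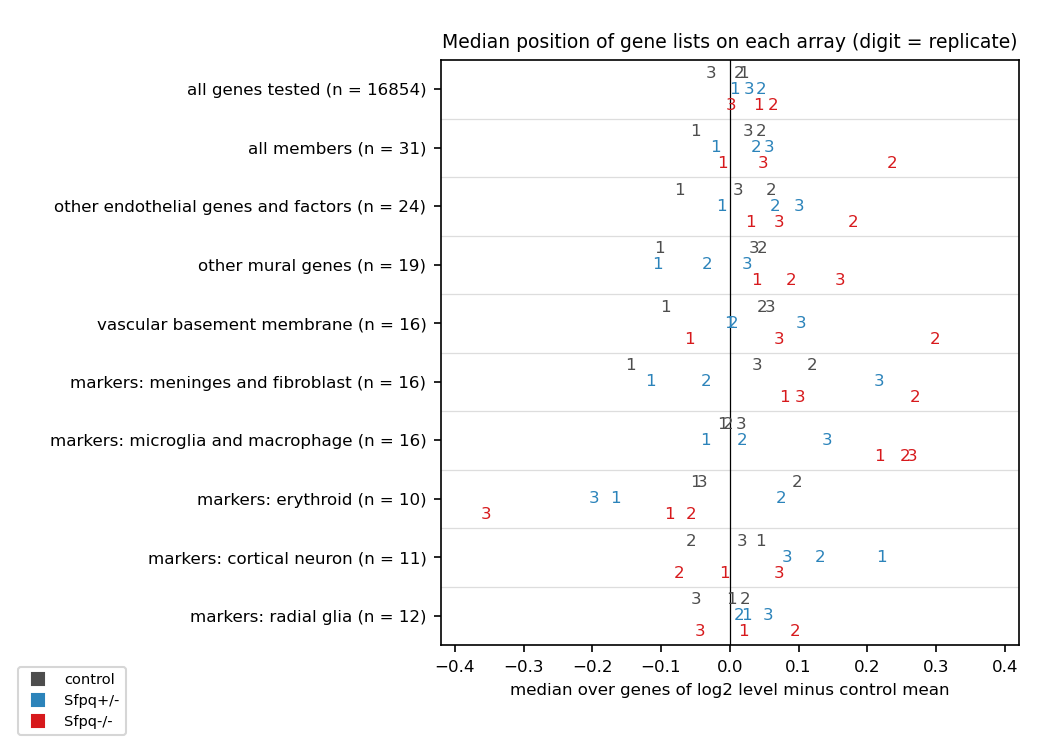
Median over the genes of each list of the log2 level minus its control mean, for each array (digits are replicates, colours are genotypes). Sfpq-/- 2 stands at 0.24 for the 31 members and 0.30 for the basement membrane list, while all 3 Sfpq-/- arrays lie at 0.22 to 0.27 for microglia and macrophage genes.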

How the data were processed

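The deposited values are log2 signals, 1 per probe set and array, made by the authors; the submitters' processing notes name Affymetrix Expression Console, version 1.2.0.20, without its background correction or normalization method, and the log2 scale was read from the values. Of 1256831 probe sets, 628415 with a mean above 5.64, the median of all means, were kept, and 318760 (25.4%) of all have 1 gene symbol in the platform annotation, updated through RefSeq where old (Mfsd2a stands there as Mfsd2). Gene levels, the mean of at least 3 kept probe sets, were fitted with limma 3.58.1 in R 4.3.3 (lmFit, eBayes; 3 group means over 9 arrays) and p-values adjusted by Benjamini-Hochberg over all 16854 genes, with a threshold of 0.05. The fit was run on simulated data with independent normal noise and planted changes. How often it recovers changes as small as those of the members is not given here. Precision is limited by having 3 arrays in a group.

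The members, roles and gene lists were chosen with earlier results of these data known. By rule, every member was accounted for, array values were given for called members, for those with the largest changes and for 9 chosen markers, and each list named its called genes, up to 6 by adjusted p, or its nearest 2. Only 2 tested members lay below 0, so 2 were named as lowest. Kcnj8, Abcc9, Esam and genes quoted beside a list's calls, such as Vegfa, Pdgfb and Wnt7a, were added after their values were seen.

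Alternatives were the filter on dim probe sets (none, or the 75th percentile), at least 1 probe set, the median in place of the mean, quantile normalization, the 2 compared groups alone, array weights, the replicate number as a block and each array left out. Centring arrays on the median gene, embryo sex as a covariate and the fits of list genes, roles, span classes and probe sets without 1 array were added after seeing the data.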

Additional observations from a re-analysis of the deposited data

How the results depend on the processing

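In Sfpq-/- against control, 3 members passed with all arrays, beside 12.1% of all genes. With probe sets above the 75th percentile 1 passed (Mfsd2a), beside 17.4% of all genes. The same 1 passed with the median of the probe sets (8.91% of all genes) or with only the 2 groups compared (8.84%). Leaving out 1 array gave 0 to 2 of the 31 members. Their median log2 change of 0.09 ranged from 0.017 to 0.16 when 1 array was left out and was -0.0026 with array weights, which called 4612 of all genes in place of 2040; without control 2 and without Sfpq-/- 1 the count over all genes was 1343 and 1311. The cause was not tested. For Sfpq-/- against Sfpq+/-, 0 members passed with all arrays, beside 11.8% of all genes. Array weights gave 3 (Mfsd2a, Rgs5, Sox18), beside 21.6% of all genes. Arrays centred on the median gene gave 2 (Mfsd2a, Rgs5), beside 14.4%, and embryo sex as a covariate gave 1 (Rgs5), beside 10.5%. Sfpq+/- against control gave 0 in all 19 settings. Over single members and settings, 563 of 589 values kept their side of the threshold in Sfpq-/- against control, 25 lost a call and 1 gained one. In Sfpq-/- against Sfpq+/- 581 of 589 did so and 8 gained a call. No value called in either of the 2 fits compared changed sign. Among uncalled values some did, such as Sox17 against control in 4 of 19 settings and Egfl7 against Sfpq+/- in 7.

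Whether replicate numbers pair the samples is not stated in the labels. Correlations of same-numbered arrays' deviations from group means ran from -0.06 to 0.57, and those of differently numbered arrays from -0.53 to 0.36. The pairs of arrays numbered 3 gave 0.30 to 0.57. The limma fit with the replicate block called 4 of 31 members in Sfpq-/- against control, adding Kcnj8 (adjusted p = 0.0493), beside 14.6% of all genes. It called 0 in Sfpq+/- against control, beside 0% of all genes, and 2 (Kcnj8, Rgs5) in Sfpq-/- against Sfpq+/-, beside 14%.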
